A study of Mus musculus with 4 samples.

Results

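Amino acid transporter genes of the stria vascularis (SV) are described here. They are all genes listed for both cells and nuclei whose symbol begins with Slc1a, Slc3a, Slc6a, Slc7a, Slc36a, Slc38a or Slc43a. This takes in 4 symbols ending in os, which are named for their place opposite a carrier gene and are counted with the transporters below. The definition gave 66 of the 27336 gene symbols common to both lists, and 39 of the 66 had at least 30 unique molecular identifiers (UMIs, counts of captured RNA molecules) over the 4 libraries. The 4 libraries were 3 captures of single cells (scRNA-Seq) and 1 capture of single nuclei (snRNA-Seq) prepared from SV that was dissected at postnatal day 30 from CBA/J mice. The labels give about 12 mice for cells and about 10 for nuclei, whereas the paper's main methods state totals of 10 for cells and 12 for nuclei. The supplementary methods count the mice of each capture of cells separately and reach a larger sum. The number of mice is therefore uncertain for both assays. CBA/J is an inbred strain, and all libraries came from the same age, strain and tissue, so that the comparison of interest was between cell types. Each capture is a pool of animals. The p-values rest on how differences between types vary over such pools, and not on the spread between single mice.

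The SV is the epithelium of the cochlear lateral wall that secretes potassium into endolymph and generates the endocochlear potential. Marginal cells face endolymph, melanocyte-derived intermediate cells lie in the middle layer, basal cells seal the tissue against the spiral ligament, and spindle and root cells lie at its edges. Amino acids enter cells through carriers that differ in their substrate and driving force. Members of Slc1a take up glutamate or neutral amino acids, Slc6a carriers use sodium and chloride to move neurotransmitters, amino acids and related solutes such as taurine and creatine, and Slc38a holds sodium-coupled neutral amino acid transporters of the plasma membrane and lysosome. The Slc36a family includes carriers coupled to protons, and Slc43a1 and Slc43a2 carry large neutral amino acids by facilitated diffusion. Several Slc7a proteins are light chains that reach the membrane only as a disulfide-linked pair with a heavy chain of Slc3a, the 4F2 heavy chain Slc3a2 or rBAT, Slc3a1.

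Clusters of barcodes were named from markers that hold no transporter of these families, and the transporters took no part in clustering. The names are therefore marginal-like, intermediate-like, basal-like and spindle/root-like, shortened below to marginal, intermediate, basal and spindle/root. Capture 1 held 18 marginal, 128 intermediate, 21 basal and 4 spindle/root cells. Capture 2 held 72, 410, 49 and 15 cells of these types, and capture 3 held 44, 392, 23 and 14. The nuclei included 2541 marginal, 1477 intermediate, 625 basal and 205 spindle/root nuclei. Unnamed were 204, 752 and 874 of the 377, 1315 and 1462 cells kept, and 3936 of 9754 nuclei. Library totals were 2811309, 8113494 and 8340882 UMIs for cells and 22332501 for nuclei, and captures of cells shared 0 to 6 barcodes with each other and 7 to 32 with the nuclei.

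Each type held its own markers, together with RNA of other SV types, erythroid cells and vessels. The 14 marginal markers summed to 16480 to 18440 counts per 1000000 UMIs (CPM) in marginal cells and to 2195 to 3387 CPM in the other types. The 13 intermediate markers summed to 22880 to 31130 CPM in intermediate cells, but also to 6479 to 10400 CPM in marginal and 9316 to 12620 CPM in basal cells, against 1207 and 3451 CPM in spindle/root cells. In nuclei the same 13 markers summed to 36740 CPM in intermediate, 1818 CPM in marginal and 4193 CPM in basal nuclei. Of these 13, Tyrp1 and Pmel were at 0 in marginal and basal cells, and Pmel was at 0 in intermediate cells too. The 6 erythroid markers summed to 150.5 to 358.0 CPM in the 4 types in captures 1 and 2, to 1630 to 1996 CPM in capture 3 and to 3417 to 7747 CPM in nuclei. The 7 endothelial markers summed to 0 and 218.6 CPM in spindle/root cells of captures 2 and 3, and to 19.9, 6.17 and 179.8 CPM in basal cells. The 7 pericyte markers summed to 0 and 399.2 CPM in spindle/root, to 25.6, 9.26 and 118.5 CPM in basal and to 179.3, 9.84 and 12.9 CPM in marginal cells. The part of this RNA of other types in any result was not tested. Levels in erythroid cells are given beside several genes for comparison, and they come from captures 2 and 3 only. They are not a level of background for carriers that erythroid cells hold themselves. Mitochondrially encoded genes took a median of 38.65% to 45.41% of UMIs in cells and 8.303% in nuclei.

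The promoters shown belong to members called higher in a type, 4 in marginal cells, 2 in intermediate cells and 1 in basal cells, and each is labelled with that type. Of these, Slc7a1 was not resolved between intermediate and marginal cells, nor Slc1a3 between basal and spindle/root cells. They are read from RefSeq on GRCm38.p6, 5′ to 3′ on the strand of the gene, and hold up to 250 bases before the annotated start without bases that lie within the gene. Of the 66 genes, 48 matched a promoter window of this table. Capitals mark a match to the E-box CACGTG, bound by transcription factors of the basic helix-loop-helix class.
Slc7a10, marginal, chr7:35186135-35186384, plus strand: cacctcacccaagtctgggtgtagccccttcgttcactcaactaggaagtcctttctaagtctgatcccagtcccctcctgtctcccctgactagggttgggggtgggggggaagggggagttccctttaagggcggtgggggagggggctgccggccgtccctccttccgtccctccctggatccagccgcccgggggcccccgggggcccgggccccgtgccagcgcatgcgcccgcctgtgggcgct
Slc7a8, marginal, chr14:54781947-54782136, minus strand: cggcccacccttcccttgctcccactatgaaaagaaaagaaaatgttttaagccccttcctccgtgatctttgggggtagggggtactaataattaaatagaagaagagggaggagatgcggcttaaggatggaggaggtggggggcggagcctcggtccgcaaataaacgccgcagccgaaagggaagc
Slc6a17, marginal, chr3:107518019-107518268, minus strand: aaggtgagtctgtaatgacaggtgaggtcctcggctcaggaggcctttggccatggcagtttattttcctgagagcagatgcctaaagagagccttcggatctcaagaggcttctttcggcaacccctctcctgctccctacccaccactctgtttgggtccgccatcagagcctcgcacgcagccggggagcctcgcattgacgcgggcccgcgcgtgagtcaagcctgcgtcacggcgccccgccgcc
Slc36a1, marginal, chr11:55204090-55204339, plus strand: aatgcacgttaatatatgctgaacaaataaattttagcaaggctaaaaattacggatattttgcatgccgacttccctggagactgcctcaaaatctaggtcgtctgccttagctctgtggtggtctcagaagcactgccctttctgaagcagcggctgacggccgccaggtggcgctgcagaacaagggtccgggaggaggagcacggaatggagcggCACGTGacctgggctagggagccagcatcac
Slc38a10, intermediate, chr11:120151352-120151601, minus strand: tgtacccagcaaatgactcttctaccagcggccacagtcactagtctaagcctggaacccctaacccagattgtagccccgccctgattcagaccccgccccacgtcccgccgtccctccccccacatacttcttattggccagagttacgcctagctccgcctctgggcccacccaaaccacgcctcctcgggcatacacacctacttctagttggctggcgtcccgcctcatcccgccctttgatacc
Slc7a1, intermediate, chr5:148399905-148400154, minus strand: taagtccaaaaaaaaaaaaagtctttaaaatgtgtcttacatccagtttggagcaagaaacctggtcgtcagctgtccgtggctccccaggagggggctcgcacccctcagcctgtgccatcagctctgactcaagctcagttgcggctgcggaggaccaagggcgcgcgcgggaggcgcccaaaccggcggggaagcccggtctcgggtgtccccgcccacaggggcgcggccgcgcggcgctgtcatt
Slc1a3, basal, chr15:8710808-8711057, minus strand: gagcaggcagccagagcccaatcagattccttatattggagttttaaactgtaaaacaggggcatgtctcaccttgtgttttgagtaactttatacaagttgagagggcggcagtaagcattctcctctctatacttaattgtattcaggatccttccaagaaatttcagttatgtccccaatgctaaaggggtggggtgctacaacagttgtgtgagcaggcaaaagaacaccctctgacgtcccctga

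4 sets of letters were searched on both strands of all 32851 promoter windows of the table. These were the E-box CACGTG, the melanocyte-type M-box core CATGTG, the estrogen-related receptor site TCAAGGTCA and the ATF4 response element TGATGNAA. Over all windows they were present in 6.02%, 12.3%, 0.387% and 3.45%. Of the 13 matched members that were also tested between types, 2 held the E-box, Slc36a1 and Slc38a7, 2 held the M-box core, Slc1a2 and Slc38a7, and 0 held either of the other letters. The search covered the full windows of 250 bases, including bases that lie within the gene. The Slc1a2 window lay wholly within its gene. In Slc38a7 the E-box and all but the first letter of the M-box core lay within the gene. The E-box of Slc36a1 lay outside its gene and began 31 bases before the start. Slc7a11 held the M-box core 74 bases and the ATF4 element 66 and 47 bases before its start. A match describes the letters only.

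Counts sufficed to test 18 of the 39 genes between cell types, and 13 of the 18 differed in at least 1 type. The matching share of all genes was not counted, so this number does not set these genes apart from others. UMIs were summed per capture and type, and each type was set against the average of the other 3 by the quasi-likelihood test of edgeR, with p-values adjusted after Benjamini and Hochberg over 7385 genes, where a call is an adjusted p under 0.05. In marginal cells 7 of 18 genes were called higher and 2 lower, beside 15.9% and 9.65% of all genes tested. In intermediate cells 4 were called higher and 2 lower, beside 17.1% and 16.4%. In basal cells 4 were higher and 0 lower, beside 14.8% and 9.47%, and in spindle/root cells 1 was higher and 2 lower, beside 12.4% and 9.94%. The median log2 fold change of the 18 genes was 0.37 in marginal cells against 0.05 over all genes, −0.04 against 0.01 in intermediate, −0.03 against −0.01 in basal and −0.75 against −0.05 in spindle/root cells. Of 108 pairwise differences between types, 38 were called. The matching share over all genes was not counted, so this is not read as many or few. Of the 13 called genes, 12 were highest in the same SV type in cells and in nuclei, and Slc7a1 was not. This ranks CPM alone, and the matching share of all called genes was not counted. In cells the highest type did not differ beyond the threshold from at least 1 other type for Slc1a3, Slc6a6, Slc7a1, Slc7a8, Slc36a1 and Slc38a1.

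**Figure D1:**
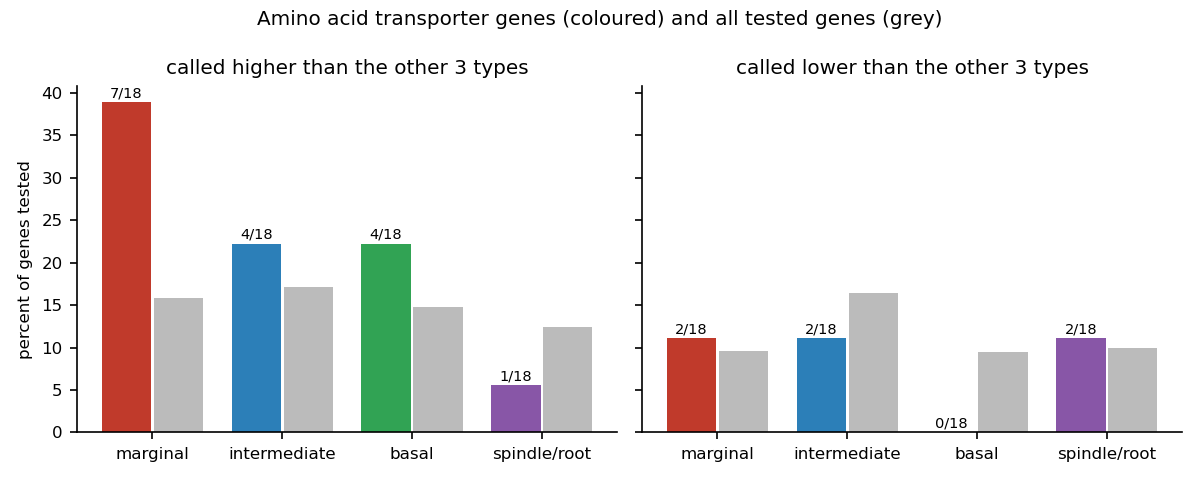
Percent of genes tested that were called higher (left) or lower (right) in each SV type than the mean of the other 3 types, for the 18 transporters (coloured) and all 7385 genes (grey); numbers above bars are transporters called. The marginal bar is the tallest among the transporters, with 7 of 18 genes called higher beside 15.9% of all genes.

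The 7 transporters called higher in marginal cells included a serine and glycine exchanger, a broad neutral amino acid light chain and a synaptic-type carrier of neutral amino acids. Marginal cells did not have the most such calls in every setting. A first setting took the cells low in intermediate markers (marginal, basal and spindle/root cells at or below their type's median share of those markers). There 2 were higher in marginal, 5 in intermediate and 5 in basal cells. With at most 50% mitochondrial UMIs the numbers were 5, 5 and 6, and without capture 2 they were 5, 6 and 4. Of all genes tested in the first setting, 889, 1069 and 953 of 5194 were called higher in these types. In the second they were 1231, 1294 and 1106 of 6720, and in the third 862, 1018 and 728 of 7092. Slc7a10 was not tested in any of these settings, nor Slc6a17 in the first, so part of each lower marginal count is a missing test. Slc7a10 (chr7:35186385-35201114, plus strand, overlapping Lrp3 on the opposite strand) encodes Asc-1, which exchanges alanine, serine, cysteine and glycine with Slc3a2. It stood at 19.9, 24.6 and 28.0 CPM in marginal cells of captures 1 to 3, and at 0.95, 0.79 and 0.82 CPM in intermediate cells. Basal cells had 0, 0 and 4.09 CPM, spindle/root cells 0 and 0 CPM, and erythroid cells 0 CPM. Each marginal capture lay above each sum of the other types. The difference was 4.40 ± 0.64 (log2, SE) from intermediate cells, with an adjusted p of 9.36e-08 in edgeR, and 4.57 ± 0.98 from basal cells, with an adjusted p of 0.000175. Against spindle/root cells the pooled level was at least 2.51-fold higher, with the floor of 3 counts over the cells of all captures. The nuclei held 67.5 CPM in marginal (59.8 to 75.9, exact 95% Poisson interval, counting error only) against 15.1 CPM in basal and 2.40 CPM in intermediate nuclei.

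Slc7a8 (chr14:54722209-54781946, minus strand) encodes LAT2, a further light chain of Slc3a2 that exchanges small and large neutral amino acids. Its marginal levels were 59.8, 20.9 and 36.6 CPM, with 0.95, 2.78 and 3.28 CPM in intermediate and 5.68, 4.63 and 0 CPM in basal cells. Spindle/root cells had 7.65 and 0 CPM, so that no capture of another type reached the marginal range. Marginal cells exceeded the other types by 3.09 ± 0.52 (adjusted p = 3.03e-06 in edgeR). The difference was 3.30 ± 0.48 from intermediate cells and 2.99 ± 0.65 from basal cells, and from spindle/root cells it was 2.98 with an adjusted p of 0.0615. Without capture 2 the excess over the other types was 5.03. Spindle/root cells were then left with capture 3 alone, at 0 CPM, so the size of this value rests on that 0. Among nuclei, marginal nuclei held 66.0 CPM (58.4 to 74.4), the highest of the SV types, but fibrocyte nuclei held 135.6 CPM (90.8 to 194.7) and Reissner's membrane nuclei 82.9 CPM.

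Slc6a17 (chr3:107467543-107518018, minus strand) encodes NTT4, a carrier of neutral amino acids known from synaptic vesicles. It was at 39.8, 36.9 and 51.6 CPM in marginal cells, at 8.51, 10.7 and 11.1 CPM in intermediate cells and at 0, 6.17 and 8.17 CPM in basal cells. Marginal cells were again above each sum of the other types, with spindle/root and erythroid cells at 0. The marginal level exceeded that of intermediate cells by 1.72 ± 0.32 (adjusted p = 1.45e-05 in edgeR) and that of basal cells by 3.00 ± 0.53 (adjusted p = 8.24e-06). It was at least 4.22-fold higher than in spindle/root cells. Intermediate and basal cells did not differ beyond the threshold (log2 difference 1.28, 95% interval 0.12 to 2.44, adjusted p = 0.0962). Marginal nuclei held 60.9 CPM (53.6 to 68.9) against 7.59 CPM in intermediate and 15.1 CPM in basal nuclei.

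Slc6a8 and Slc36a1 were raised more evenly. Slc6a8 (chrX:73673150-73682502, plus strand) encodes the creatine transporter, a family member whose substrate is not an amino acid used in protein. It was at 119.5, 123.0 and 146.3 CPM in marginal cells, 54.9, 42.5 and 59.0 CPM in intermediate and 56.8, 61.7 and 53.1 CPM in basal cells. Spindle/root cells differed between captures, with 91.8 and 19.0 CPM, and erythroid cells were at 1.83 CPM. Without the 2 spindle/root cells of capture 2 that had at least 50 Ddit3 UMIs, the spindle/root levels were 31.3 and 19.0 CPM. The marginal excess was 1.15 ± 0.19 (adjusted p = 2.64e-06 in edgeR), and it was 1.74 without capture 2. Intermediate, basal and spindle/root cells did not differ from each other beyond the threshold, with adjusted p from 0.661 to 0.891. Nuclei gave 115.0 CPM (104.9 to 125.8) in marginal and 39.1 to 45.2 CPM in the other SV types.

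Slc36a1 (chr11:55204350-55236330, plus strand) encodes PAT1, a proton-coupled carrier of small amino acids at lysosomes and the plasma membrane. Marginal cells had 59.8, 27.1 and 55.9 CPM, above each of the other sums, which ran from 13.1 to 25.6 CPM. The excess was 1.204 ± 0.31 (adjusted p = 0.00231 in edgeR). It did not pass without capture 3 (adjusted p = 0.105), nor in the cells low in intermediate markers (adjusted p = 0.186). Nuclei held 60.2 CPM in marginal, 36.7 CPM in basal, 18.0 CPM in intermediate and 5.61 CPM in spindle/root.

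Slc38a1 (chr15:96571418-96642913, minus strand), the glutamine transporter SNAT1, was high in marginal and intermediate cells alike. Its levels were 119.5, 77.5 and 137.7 CPM in marginal and 112.5, 99.6 and 108.9 CPM in intermediate cells. Basal cells had 62.5, 61.7 and 102.1 CPM and spindle/root cells 23.0 and 38.02 CPM. The ranges of marginal and basal cells overlapped, whereas both spindle/root captures were below all other sums. Marginal and intermediate cells did not differ beyond the threshold (−0.30, 95% interval −0.62 to 0.02, adjusted p = 0.156). Against the other types, intermediate cells were higher by 1.14 ± 0.19 (adjusted p = 1.23e-06 in edgeR) and spindle/root cells lower by a log2 change of −1.93 ± 0.45 (adjusted p = 0.000796). The marginal excess of 0.73 ± 0.22 (adjusted p = 0.00941) did not pass in DESeq2 (0.0585), without capture 1 (0.0546), without capture 3 (0.0737) or in the cells low in intermediate markers (0.109). Nuclei held 106.5, 89.8, 46.2 and 36.5 CPM in marginal, intermediate, basal and spindle/root.

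Intermediate cells were the high point of Slc7a5, the LAT1 light chain that carries large neutral amino acids such as leucine, phenylalanine and tyrosine (chr8:121881150-121907694, minus strand, overlapping Gm20388 on the other strand). It stood at 154.1, 109.9 and 177.3 CPM in intermediate cells, 87.7, 43.1 and 68.8 CPM in marginal cells and 102.2, 54.0 and 114.4 CPM in basal cells. Spindle/root cells had 122.4 and 28.5 CPM, and erythroid cells 40.3 CPM. Within each capture of cells the intermediate level was the highest apart from spindle/root cells of capture 2, where 16 of 16 UMIs came from 1 cell. Intermediate cells exceeded the other types by 1.27 ± 0.17 (adjusted p = 4.31e-08 in edgeR). The log2 difference of marginal minus intermediate cells was −1.53 ± 0.20 (adjusted p = 2.49e-08), and that of intermediate minus basal cells was 1.04 ± 0.20 (adjusted p = 4.24e-05).

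The marginal and basal levels of Slc7a5 were lower in the clusters and nuclei that held less intermediate RNA. In nuclei Slc7a5 was at 89.4 CPM (78.1 to 101.9) in intermediate nuclei, against 7.31 CPM (4.93 to 10.4) in marginal, 11.3 CPM in basal and 8.42 CPM in spindle/root nuclei. The 3 clusters of marginal cells held intermediate markers at 11950, 4229 and 514.1 CPM, and Slc7a5 at 99.2 CPM (78.7 to 123.5), 16.1 CPM (6.95 to 31.7) and 4.43 CPM (0.11 to 24.7) in that order. Basal cells fell into a cluster of 56 cells with 14520 CPM and one of 37 cells with 3800 CPM of intermediate markers, with Slc7a5 at 113.3 CPM (90.7 to 139.7) and 25.2 CPM (upper bound 44.0). In the cells low in intermediate markers the intermediate excess was 5.41 (adjusted p = 2.66e-31), and without the 2 spindle/root cells that had at least 50 Ddit3 UMIs it was 2.08 (adjusted p = 9.57e-17). The marginal level was called lower than the mean of the other types (−0.77 ± 0.24, adjusted p = 0.0125 in edgeR), but this call held in only 6 of 17 alternative settings. It fell short of the threshold in 8, among them the fit without the replicate block (adjusted p = 0.163), DESeq2 and the fit without capture 2 (adjusted p = 0.869). In the other 3 the direction turned, and without those 2 spindle/root cells the log2 fold change was 0.04 (adjusted p = 0.949). The part of intermediate RNA in the marginal and basal levels was not tested.

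Slc38a10 and Slc7a1 were also called higher in intermediate cells. Slc38a10 (chr11:120103960-120151346, minus strand, overlapping Gm11769 on the other strand) is a SNAT family member described for glutamine and related amino acids. Intermediate cells had 197.6, 149.6 and 169.2 CPM, marginal cells 123.5, 113.2 and 109.7 CPM, basal cells 107.9, 66.4 and 143.0 CPM and spindle/root cells 61.2 and 66.5 CPM. Each intermediate capture lay above each sum of the other types. The excess was 1.24 ± 0.15 (adjusted p = 1.48e-09 in edgeR), and nuclei followed with 99.4 CPM (87.5 to 112.6) against 64.1 to 69.9 CPM. Its lower level in spindle/root cells (−1.19 ± 0.35, adjusted p = 0.00926) did not pass without capture 2 (0.0592), without capture 3 (0.0525) or under 4 other settings. Among the unnamed barcodes the pooled level was 101.0 CPM in cells and 130.3 CPM in nuclei, above the level of every named type in nuclei.

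Slc7a1 (chr5:148327410-148399904, minus strand), the cationic amino acid transporter CAT1 for arginine and lysine, was at 52.0, 48.0 and 54.5 CPM in intermediate and 51.8, 32.0 and 66.7 CPM in marginal cells. Basal cells had 34.1, 33.9 and 24.5 CPM and spindle/root cells 15.3 and 38.02 CPM. The marginal range enclosed the intermediate range, and the 2 types did not differ beyond the threshold (−0.42, 95% interval −0.84 to −0.00, adjusted p = 0.127). Intermediate cells exceeded the other types by 0.93 ± 0.22 (adjusted p = 0.000662 in edgeR) and basal cells by 0.90 ± 0.25 (adjusted p = 0.00416). In the cells low in intermediate markers the excess over the other types was 3.50. Nuclei gave 58.0 CPM (50.9 to 65.8) in marginal and 57.1 CPM (48.1 to 67.3) in intermediate nuclei, whose intervals overlap, so the order of these types was not resolved.

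Basal cells were the high point of the glial-type glutamate transporter Slc1a2 and of a second cationic carrier. The glial-type Slc1a3 was not resolved between basal and spindle/root cells. Slc1a2 (chr2:102658659-102790784, plus strand, overlapping Gm13872 on the other strand) encodes GLT-1, which clears glutamate into astrocytes in the brain. It was at 48.3, 37.0 and 32.7 CPM in basal cells, 0, 3.69 and 0 CPM in marginal cells, 0.95, 0 and 0.41 CPM in intermediate cells and 0 CPM in both spindle/root captures. Basal cells were above every other sum in each capture. The log2 difference of intermediate minus basal cells was −6.03 ± 0.69 (adjusted p = 2.25e-10 in edgeR), and that of marginal minus basal cells was −4.21 ± 0.72 (adjusted p = 4.85e-06). Against spindle/root cells the pooled level was at least 3.97-fold higher. Nuclei gave 30.1 CPM (20.6 to 42.6) in basal, 1.71 CPM in marginal and 0 CPM in intermediate nuclei, with 32.7 CPM in fibrocyte nuclei.

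Slc1a3 (chr15:8634124-8710764, minus strand, overlapping Gm37310 on the same strand) encodes GLAST, the partner glutamate and aspartate transporter of glia and supporting cells. Basal cells had 48.3, 75.6 and 85.8 CPM, marginal cells 0 CPM in all 3 captures, intermediate cells 2.84, 0 and 0.82 CPM and spindle/root cells 122.4 and 9.51 CPM. The pooled basal level was at least 35.6-fold higher than that of marginal cells. The log2 difference of intermediate minus basal cells was −5.89 ± 0.67 (adjusted p = 9.91e-06 in edgeR), and that of intermediate minus spindle/root cells was −5.59 ± 1.03 (adjusted p = 0.000962). Basal and spindle/root cells did not differ beyond the threshold (0.30, 95% interval −1.01 to 1.60, adjusted p = 0.792). Basal cells were called higher than the mean of the other types (adjusted p = 6.67e-05), marginal cells lower (0.0120) and spindle/root cells higher (0.00472). The marginal call did not pass without capture 2 (0.0539), nor did the spindle/root call (0.639). In spindle/root cells of capture 2, 13 of the 16 UMIs came from 2 of 12 root-like cells. Basal nuclei held 113.0 CPM (93.7 to 135.2) and spindle/root nuclei 19.6 CPM (7.90 to 40.5), and fibrocyte nuclei held 481.5 CPM (393.0 to 584.0).

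Slc7a2 (chr8:40862396-40922308, plus strand, overlapping Gm26584 on the other strand), the cationic amino acid transporter CAT2, was at 48.3, 61.7 and 57.2 CPM in basal cells. Marginal cells had 0, 3.69 and 2.15 CPM, intermediate cells 3.78, 1.19 and 2.46 CPM and spindle/root cells 7.65 and 9.51 CPM. No sum of another type approached the basal range. The basal excess was 3.92 ± 0.43 (adjusted p = 7.77e-11 in edgeR), with pairwise differences of 2.98 ± 0.85 from spindle/root cells (adjusted p = 0.00661), and of −4.36 ± 0.44 for intermediate minus basal and −4.41 ± 0.57 for marginal minus basal. The lower level in intermediate cells, set against the other 3 types (−1.90, adjusted p = 0.0297) did not pass without capture 2 (0.459) or without capture 3 (0.111). Nuclei repeated the order, with 198.8 CPM (172.8 to 227.5) in basal and 70.2 CPM (45.4 to 103.5) in spindle/root nuclei against 7.80 and 4.39 CPM in marginal and intermediate nuclei. Fibrocyte nuclei held 163.6 CPM (114.0 to 227.5). Fibrocyte markers summed to 369.1 to 524.6 CPM in basal cells, against 28.4 to 67.7 CPM in marginal and intermediate cells. Their part in the basal levels of Slc1a2, Slc1a3 and Slc7a2 was not tested.

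The 2 clusters of basal cells held these genes in the order opposite to that of Slc7a5. In the cluster low in intermediate markers Slc1a3 was at 119.5 CPM (90.5 to 154.9), against 39.1 CPM (26.4 to 55.8) in the other. Slc1a2 was at 65.0 and 23.4 CPM and Slc7a2 at 75.5 and 45.6 CPM. Slc6a6 and Slc6a8 were alike in both clusters, with 50.3 and 46.9 CPM and with 56.6 and 59.9 CPM. The intervals cover counting error only, and the clusters were not tested against each other.

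**Figure D2:**
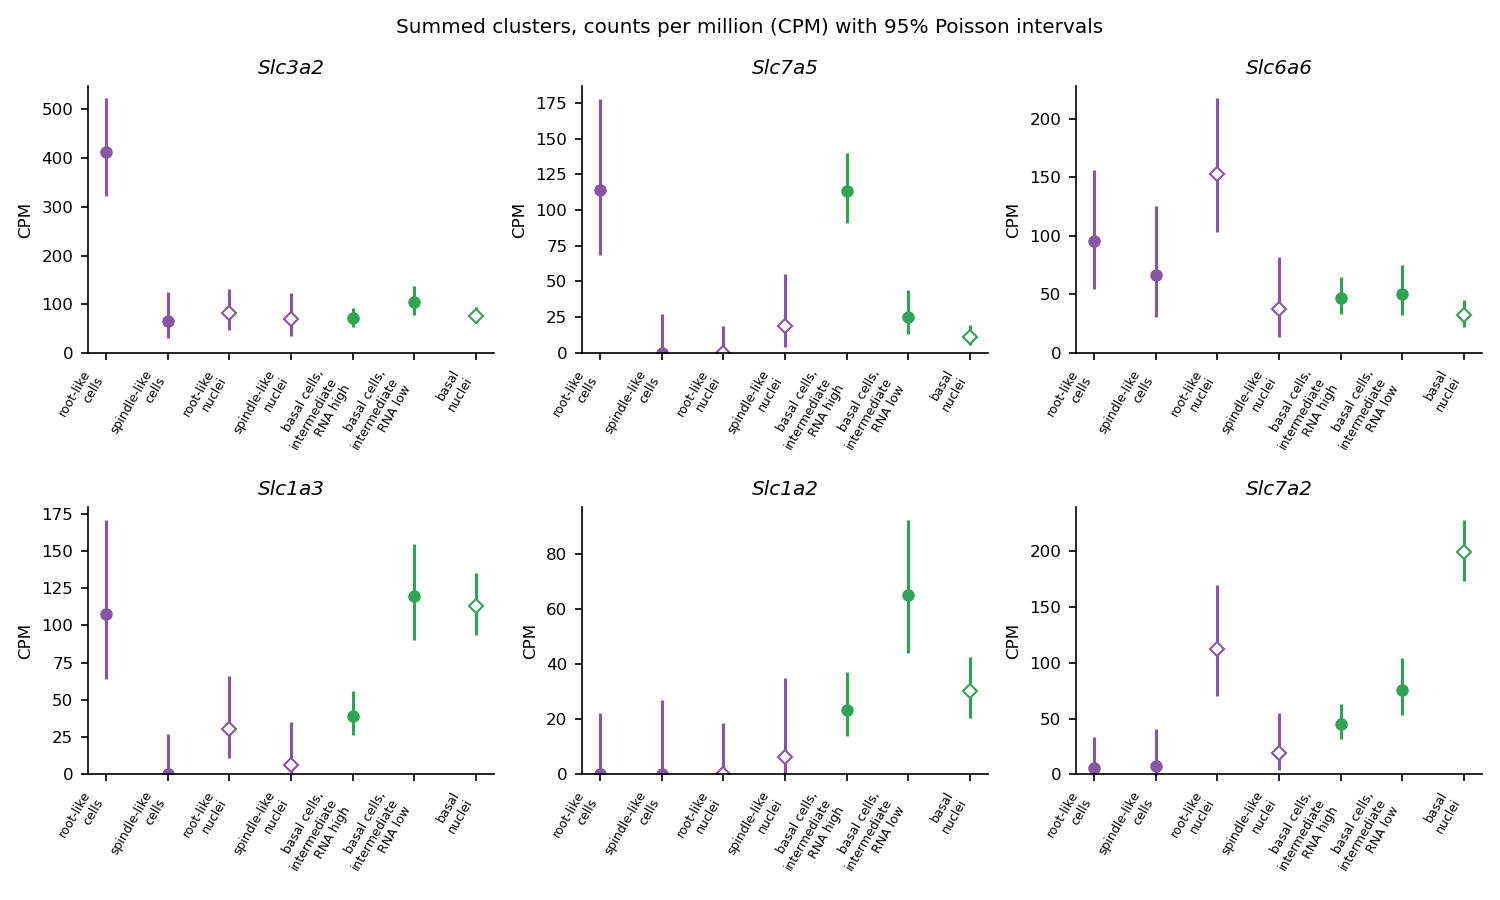
Summed CPM of 6 genes in the clusters behind the spindle/root and basal types, with exact 95% Poisson intervals for counting error; filled circles are cells and open diamonds nuclei. Slc3a2 is highest in root-like cells, at 413.7 CPM, of which 63 of 69 UMIs came from 1 cell, Slc7a5 is level in root-like cells (113.9 CPM, 16 of 19 UMIs from that cell) and in the basal cluster rich in intermediate RNA (113.3 CPM), and Slc1a3, Slc1a2 and Slc7a2 are higher in the basal cluster low in intermediate RNA.

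Slc6a6, the taurine transporter (chr6:91684053-91759066, plus strand, overlapping Gm45828 on the same strand), was set apart by its low level in intermediate cells. Intermediate cells had 5.67, 8.33 and 6.14 CPM, against 39.8, 45.5 and 45.2 CPM in marginal, 28.4, 49.4 and 73.6 CPM in basal and 38.3 and 76.0 CPM in spindle/root cells. Each intermediate capture was below each sum of the other types and near the 6.41 CPM of erythroid cells. Intermediate cells were lower by a log2 change of −2.44 ± 0.30 (adjusted p = 1.77e-09 in edgeR), and the call was lost only in the cells low in intermediate markers (−1.67, adjusted p = 0.129). Marginal, basal and spindle/root cells did not differ from each other beyond the threshold, with log2 differences of −0.22 to 0.20 and adjusted p from 0.628 to 0.983. Basal cells were called higher than the mean of the other types (1.00 ± 0.28, adjusted p = 0.00536), which did not pass without capture 2 (0.0733) or without the basal cluster rich in intermediate markers. Marginal cells were called higher (0.70 ± 0.26, adjusted p = 0.0412), which did not pass in 10 of 17 alternative settings, among them DESeq2 (0.160), the fit without the replicate block (0.0620) and the fits without capture 1 (0.133) or capture 2 (0.292). Nuclei held 51.2 CPM in marginal, 8.78 CPM in intermediate, 32.0 CPM in basal and 101.0 CPM (70.8 to 139.8) in spindle/root nuclei. Within the spindle/root nuclei, the 108 root-like nuclei held 152.4 CPM (102.8 to 217.6) and the 97 spindle-like nuclei 37.6 CPM (13.8 to 81.9).

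**Figure D3:**
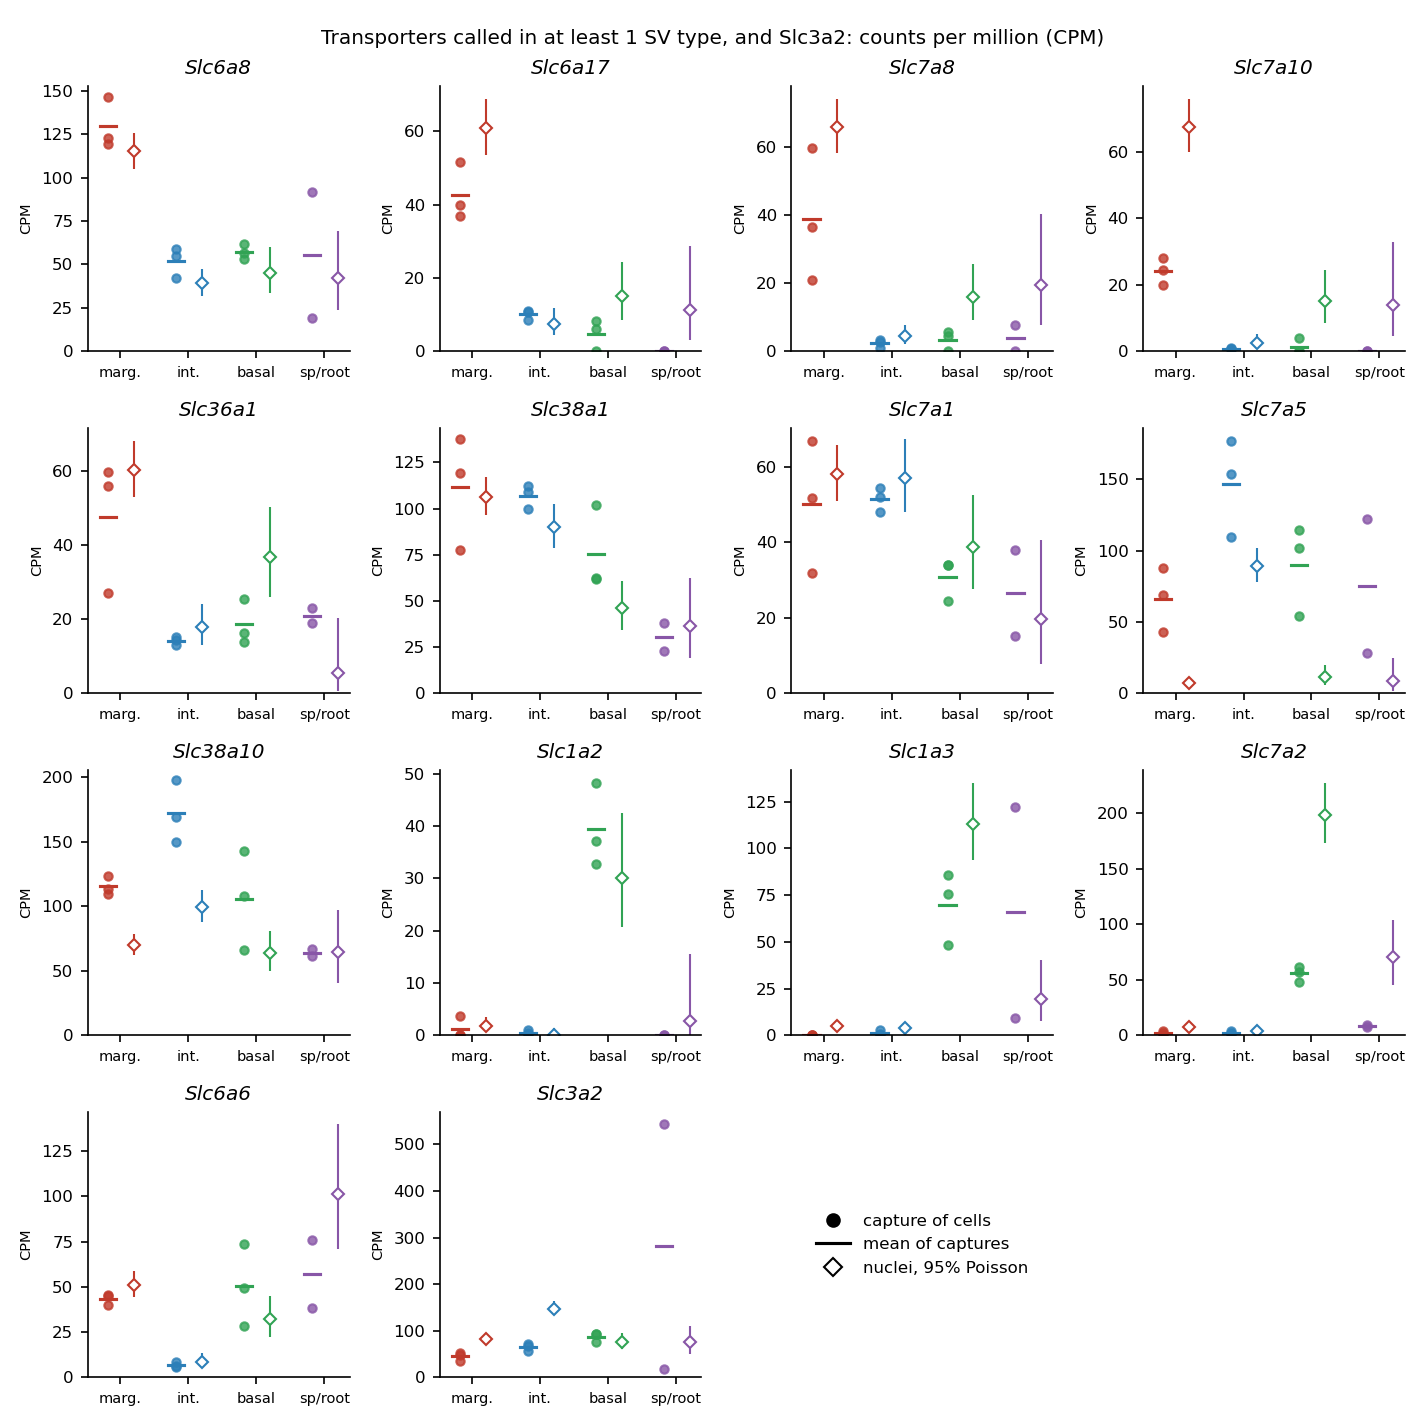
CPM of the 13 transporters called in at least 1 SV type, and of Slc3a2, by type; filled points are captures of cells, bars their mean, and open diamonds the capture of nuclei with an exact 95% Poisson interval. Slc7a10, Slc7a8 and Slc6a17 stand out in marginal, Slc7a5 in intermediate, and Slc1a2 and Slc7a2 in basal cells and nuclei. Slc1a3 stands out in basal nuclei, but its spindle/root captures of cells lie on either side of the basal ones. Slc6a6 is lowest in intermediate cells and nuclei.

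The heavy chain Slc3a2 (chr19:8706882-8723369, minus strand), which partners Slc7a5 to Slc7a8, Slc7a10 and Slc7a11, was present in every SV type. Marginal cells had 35.9, 51.7 and 47.3 CPM, intermediate cells 71.9, 67.5 and 55.7 CPM, basal cells 93.7, 75.6 and 94.0 CPM and spindle/root cells 543.3 and 19.0 CPM. The CPM ranges of marginal, intermediate and basal cells did not overlap, and the 2 spindle/root values lay on either side of all of them. In the fit, which also scales the sums, intermediate and basal cells were not told apart (−0.06, 95% interval −1.19 to 1.07, adjusted p = 0.954 in edgeR). No contrast passed, with adjusted p from 0.122 to 0.808 in edgeR against the other types. In capture 2, 63 of the 67 UMIs of the 12 root-like cells came from 1 cell, which also held 16 Slc7a5 UMIs, 133 of the 221 UMIs of the stress transcription factor Ddit3 and 12 of the 18 UMIs of the serine synthesis enzyme Phgdh. A second cell held 87 Ddit3 and 4 Slc3a2 UMIs.

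Without those 2 cells, an alternative chosen after their values were seen, spindle/root cells held 41.8 and 19.0 CPM of Slc3a2. Basal cells were then called higher (0.85 ± 0.25, adjusted p = 0.00514) and intermediate cells higher (0.70 ± 0.21, adjusted p = 0.00445), while spindle/root cells (−1.27 ± 0.52, adjusted p = 0.0679) and marginal cells (−0.28 ± 0.28, adjusted p = 0.523) were not called. Slc7a5 in spindle/root cells was then at 0 and 28.5 CPM and was called lower (−2.82 ± 0.59, adjusted p = 7.67e-05). In nuclei the heavy chain was at 147.7 CPM (133.1 to 163.6) in intermediate nuclei and at 75.8 to 82.8 CPM in the other SV types.

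The light chains of Slc3a2 were highest in different types. Slc7a5 was highest in intermediate cells and nuclei, and Slc7a8 and Slc7a10 in marginal cells and nuclei. Slc7a6 (y+LAT2, for cationic and neutral amino acids) was not tested, with 7 UMIs in marginal, 4 in intermediate, 1 in basal and 0 in spindle/root cells. Its level in nuclei was 13.4 CPM (10.1 to 17.4) in marginal against 1.198 to 5.65 CPM in the other SV types. Slc7a7 (y+LAT1) had 11 UMIs in SV cells and was highest in B cell nuclei, with 18.5 CPM (8.01 to 36.5). Slc7a11 (xCT, the cystine and glutamate exchanger) had 3 UMIs in SV cells and 84.2 CPM (49.9 to 133.0) in fibrocyte nuclei, against 0 to 8.48 CPM in the SV types. Slc7a9 and Slc7a13, light chains tied to rBAT, had under 30 UMIs.

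The rBAT heavy chain Slc3a1 (chr17:85028376-85064236, plus strand, overlapping Prepl on the opposite strand) was counted in nuclei only, with 225 UMIs there and 0 UMIs in the 3 captures of cells. A total of 0 in 6018794 UMIs allows up to 0.498 CPM in intermediate cells. The level in nuclei was 33.5 CPM (26.8 to 41.5) in intermediate, 19.6 CPM in spindle/root, 13.9 CPM in marginal and 4.71 CPM in basal nuclei. Slc6a19 had likewise 31 UMIs in nuclei and 0 in cells. Gene lists and any counting of introns differed or were not given for the 2 assays, and their part in such gaps was not tested.

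There were 5 genes tested and not called. Slc38a2 (SNAT2, an amino acid responsive carrier) was at 104.5 to 152.7 CPM in marginal, 100.8 to 153.2 CPM in intermediate, 140.4 to 179.8 CPM in basal and 95.1 and 122.4 CPM in spindle/root cells, with overlapping ranges. Its contrasts ran from −0.56 to 0.36 with adjusted p from 0.103 to 0.771 in edgeR. Slc36a4, a carrier of proline and tryptophan, was at 10.8 to 29.3 CPM in marginal, intermediate and basal cells, with the smallest adjusted p of 0.0658 in intermediate cells. Slc38a7, a lysosomal glutamine exporter, was at 8.61 to 24.5 CPM in these types, and its smallest adjusted p was 0.8. Slc43a2 (LAT4) was at 23.9, 22.1 and 8.61 CPM in marginal and 5.68 to 13.1 CPM in intermediate and basal cells, with an adjusted p of 0.107 for marginal cells. The fifth was Slc3a2. In nuclei Slc38a2 was at 98.6 to 143.1 CPM in the 4 SV types, highest in spindle/root, and among these types Slc36a4 was highest in intermediate and Slc38a7 and Slc43a2 in marginal nuclei. A missed threshold does not show that the types were equal.

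Of the 21 genes with at least 30 UMIs that were not tested, 17 were highest outside the SV types in nuclei. These genes were left untested because of low counts in SV cells, so this number follows in part from how they were picked. The matching share of all genes was not counted. Fibrocyte nuclei (107 nuclei) were highest for Slc6a9, Slc6a13, Slc6a20a, Slc7a6, Slc7a11, Slc7a14, Slc38a3 and Slc38a6. Slc6a13, a carrier of GABA and taurine, was at 37.4 CPM (16.2 to 73.7) there and at 6.59 CPM in basal nuclei. Slc38a6 was at 65.5 CPM (35.8 to 109.8) there, and its 4 SV types lay between 29.95 and 41.2 CPM. Slc6a20a and Slc6a20b are near copies of each other, and reads could be split between them, so their levels are uncertain.

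Reissner's membrane nuclei (99 nuclei) stood apart for Slc6a15 (B0AT2, a carrier of branched-chain amino acids and proline), with 538.9 CPM (425.9 to 672.5, 78 UMIs). The SV types held 1.88 to 19.6 CPM of it, and it had 4 UMIs in the 3 captures of cells. Slc7a6os, named for its place opposite Slc7a6, was highest in the same nuclei, with 41.5 CPM (15.2 to 90.2) against 37.5 CPM in marginal nuclei, whose intervals overlap. B cell nuclei (209 nuclei) held the most Slc38a9, a lysosomal arginine sensor, with 199.4 CPM (159.5 to 246.2). Marginal nuclei followed with 110.6 CPM (100.7 to 121.3) and the other SV types with 59.3 to 84.7 CPM. B cell nuclei were also highest for Slc43a3, with 48.7 CPM, and for Slc6a19 and Slc7a7, and among tested genes for Slc43a2, with 97.4 CPM (70.2 to 131.6).

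Erythroid nuclei (484 nuclei) were highest for Slc43a1 (LAT3), Slc38a5 (SNAT5) and Slc1a5 (ASCT2). Slc43a1 was at 42.7 CPM (35.2 to 51.3) there and at 49.4 CPM in erythroid cells, against 0.24 to 2.81 CPM in SV nuclei. Slc38a5 was at 21.7 CPM in erythroid nuclei and 31.1 CPM in erythroid cells, with 12 UMIs in basal cells and 0 in the other SV types of cells. Slc1a5 was at 23.6 CPM (18.1 to 30.2) in erythroid nuclei and 27.5 CPM in erythroid cells, and marginal nuclei held 17.8 CPM (13.9 to 22.4), whose interval overlaps. The remaining untested genes were highest in an SV type of nuclei, Slc6a20b and Slc7a4 in marginal, Slc3a1 in intermediate and Slc1a4 in spindle/root. Slc7a4 had 11.9 CPM (8.83 to 15.8) in marginal nuclei and 2.00 to 5.61 CPM elsewhere in the SV types, and Slc1a4 rested on 2 UMIs.

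**Figure D4:**
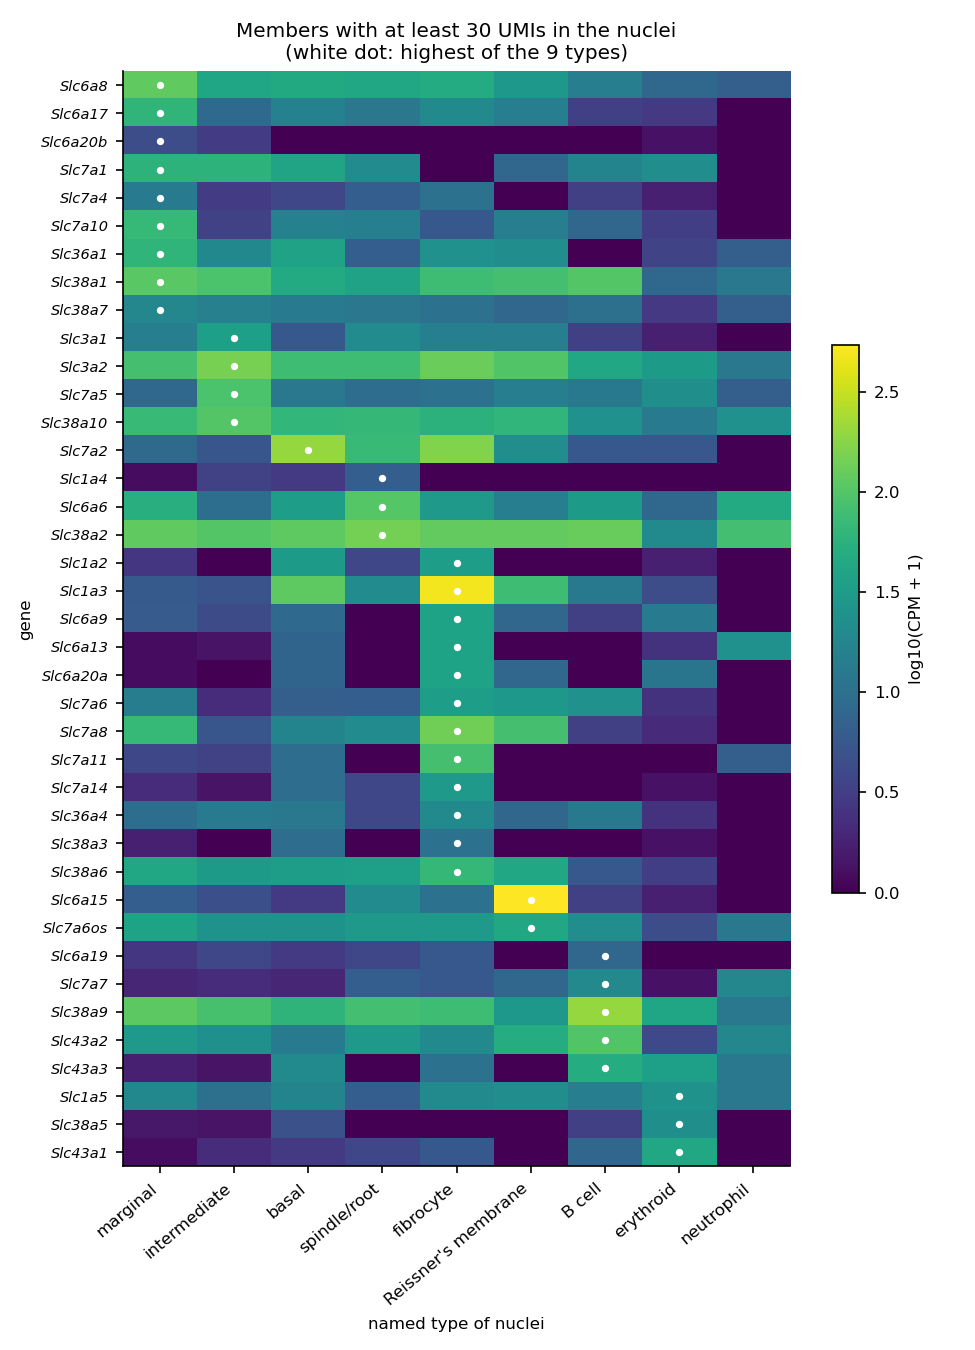
Level of the 39 genes with at least 30 UMIs, Slc7a6os among them, in the 9 named types of nuclei, as log10(CPM + 1). A white dot marks the highest type of each gene. The 39 dots fall outside the 4 SV types for 22 genes, and the matching share of all genes was not counted. The brightest cells are Slc6a15 in Reissner's membrane nuclei, at 538.9 CPM, and Slc1a3 in fibrocyte nuclei, at 481.5 CPM.

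The other 27 genes had at most 26 UMIs over all 4 libraries and were not described by type. Among them were Slc1a1, Slc1a6 and Slc1a7 of the Slc1a family, and Slc6a2, Slc6a3, Slc6a4, Slc6a5, Slc6a7, Slc6a11, Slc6a12, Slc6a14, Slc6a16, Slc6a18 and Slc6a19os of Slc6a. Others were Slc7a3, Slc7a9, Slc7a12, Slc7a13 and Slc7a15, Slc36a1os, Slc36a2, Slc36a3 and Slc36a3os, and Slc38a4, Slc38a8 and Slc38a11. Slc36a1os had 0 UMIs. The described share was 4 of 7 genes of Slc1a, 2 of 2 of Slc3a, 9 of 21 of Slc6a, 11 of 16 of Slc7a, 2 of 6 of Slc36a, 8 of 11 of Slc38a and 3 of 3 of Slc43a.

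Genes that work with these carriers were read from 8 lists, with counts out of the genes tested. Over all 7385 genes, 15.9% were called higher in marginal, 17.1% in intermediate, 14.8% in basal and 12.4% in spindle/root cells, and 9.65%, 16.4%, 9.47% and 9.94% were called lower. The lists hold 2 to 13 tested genes, so that 1 gene moves the share of a list by several percent, and no list was tested as a group. Their counts also moved with the setting, and some of these moves are given below. Without the library scaling of edgeR, 666 of all 7385 genes were called higher and 2412 lower in intermediate cells. In spindle/root cells these numbers were 1419 and 433.

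Among enzymes of glutamine and glutamate metabolism (6 tested), 3 were called higher in intermediate, 2 in basal and 2 in marginal cells, and 1 was called lower in marginal and 4 in spindle/root cells. The intermediate count was 1 without capture 1, without capture 3 or without TMM scaling (the library scaling of edgeR), and the spindle/root count of 4 was 1 of 7 without capture 3 and 2 of 6 without that scaling. Glul, which makes glutamine from glutamate, was at 2292, 2044 and 2146 CPM in intermediate and 2112, 2097 and 2513 CPM in basal cells, against 1131, 1087 and 974.5 CPM in marginal cells and 589.2 and 399.2 CPM in spindle/root cells. Both groups of high captures lay above both groups of low ones. Glul was called higher in intermediate (1.38 ± 0.10) and basal cells (1.10 ± 0.11) and lower in spindle/root cells (−2.09 ± 0.16), with adjusted p of 9.35e-17, 9.88e-13 and 1.38e-15 in edgeR. In marginal cells it was called lower by a smaller log2 change of −0.40 ± 0.11 (adjusted p = 0.00555). In nuclei Glul was lowest in marginal, at 135.9 CPM, against 188.0 CPM in spindle/root, 428.6 CPM in basal and 578.1 CPM in intermediate. Got1, an aspartate aminotransferase, was higher in marginal cells (1.03 ± 0.17), and Glud1, glutamate dehydrogenase, was higher in basal cells (0.81 ± 0.26).

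Of 6 tested genes of glutathione and cysteine metabolism, 3 were called higher in marginal and 1 in spindle/root cells, and 2 lower in intermediate cells. The marginal count stayed at 3 in the 5 other settings run on the lists, whereas the intermediate count was 4 of 6 without TMM scaling and 1 of 8 without capture 3. Cdo1, which oxidises cysteine on the way to taurine, was at 99.6, 110.7 and 96.8 CPM in marginal, 7.57, 5.56 and 5.32 CPM in intermediate, 42.6, 52.5 and 28.6 CPM in basal and 267.8 and 494.3 CPM in spindle/root cells. Its intermediate level was lower by a log2 change of −3.99 ± 0.24 (adjusted p = 3.90e-20 in edgeR), and its spindle/root level higher by 3.30 ± 0.26. In nuclei Cdo1 was at 9.18 CPM in intermediate and 185.2 CPM in spindle/root. Gclc, the catalytic subunit of glutamate-cysteine ligase, was higher in marginal cells (1.53 ± 0.23), as was Ggct (1.84 ± 0.45).

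Of 7 tested genes of other amino acid transporter families, 1 was called higher in marginal, 2 in intermediate and 1 in basal cells, and 2 lower in spindle/root cells. The 2 lower calls were lost without capture 3 and without TMM scaling. Slc25a12, a mitochondrial aspartate-glutamate carrier, was higher in marginal cells (1.91 ± 0.21, adjusted p = 4.25e-11 in edgeR) with 135.5, 131.6 and 116.2 CPM against 19.0 to 49.0 CPM in all other sums. Slc25a13, its relative, was called higher in intermediate cells (1.51 ± 0.36), where it was at 34.0, 26.6 and 27.4 CPM beside 43.8, 23.4 and 28.0 CPM in marginal cells, and these 2 types did not differ beyond the threshold (adjusted p = 0.431 in edgeR). Ctns, the lysosomal cystine exporter, was higher in basal cells (2.03 ± 0.28) with 79.5, 77.2 and 102.1 CPM.

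Of 2 tested serine synthesis genes, Psat1 was higher in basal cells (2.43 ± 0.23) with 99.4, 125.0 and 106.2 CPM, and it was called lower in marginal (−2.31) and intermediate cells (−0.70). Phgdh was called lower in intermediate cells (−3.21 ± 0.56, adjusted p = 1.79e-05 in edgeR) and higher in spindle/root cells (2.73 ± 0.64). In spindle/root cells 12 of 18 UMIs of capture 2 came from the cell described above and capture 3 was at 0. Without the 2 cells rich in Ddit3, and without capture 2, neither gene was called in spindle/root cells. Of 3 tested genes of branched-chain and aromatic amino acid use, Bckdha was higher in marginal (1.61 ± 0.32) and Bcat2 in basal cells (1.14 ± 0.25). In spindle/root cells 1 was called lower. That call was lost without the 2 cells rich in Ddit3, without capture 1 and without TMM scaling.

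Of 8 tested genes of the ATF4 pathway, which responds to amino acid shortage, 5 were called higher in spindle/root and 2 in basal cells, and 3 were called lower in marginal, 2 in intermediate and 1 in basal cells. The spindle/root count was 3 of 8 without the 2 cells rich in Ddit3, 4 of 8 without capture 1, 3 of 8 without capture 2 and 8 of 11 without capture 3. Nupr1 (2.75 ± 0.17) and Cebpb (2.95 ± 0.52) were among the 5, and Ddit3 (3.51 ± 0.76) rested on the 2 cells, with 1714 CPM in capture 2 and 47.5 CPM in capture 3. Nupr1 was lower in marginal (−1.53 ± 0.16) and intermediate cells (−1.43 ± 0.13).

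Of 13 tested genes of amino acid sensing by mTORC1, 3 were called higher in intermediate, 2 in marginal and 2 in basal cells, and 1 was lower in basal and 2 in spindle/root cells. Without TMM scaling 1 was higher and 2 were lower in intermediate cells. Fnip1 was higher in marginal (0.90 ± 0.22) and intermediate cells (0.84 ± 0.20), and Rragd (1.21 ± 0.23) and Sesn1 (1.35 ± 0.37) were higher in basal cells. The nuclei did not repeat this for Sesn1, which was lowest in basal nuclei, at 83.8 CPM against 105.4 to 110.1 CPM in the other SV types. Rragd was highest in basal nuclei, with 50.9 CPM, and Fnip1 in marginal and intermediate nuclei, with 262.9 and 258.3 CPM.

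Of 6 tested partners and trafficking genes, 2 were called higher in marginal, 2 in intermediate, 2 in basal and 1 in spindle/root cells. Of the 6, 3 were lower in intermediate and 1 in each of the other types. The count higher in spindle/root cells was 2 without TMM scaling and 2 without the cells rich in Ddit3. Without TMM scaling 0 were lower in spindle/root and 1 was higher in intermediate cells. Sgk1, a kinase that raises the surface level of several carriers, was at 418.3, 602.7 and 589.4 CPM in marginal cells, 20.8, 13.9 and 22.5 CPM in intermediate, 53.9, 58.6 and 36.8 CPM in basal and 168.3 and 142.6 CPM in spindle/root cells. Each marginal capture lay above each other sum (3.32 ± 0.14, adjusted p = 4.99e-27 in edgeR), and nuclei held 305.0 CPM in marginal and 36.7 CPM in intermediate. Sgk1 was called lower in intermediate (−2.78 ± 0.20) and basal cells (−1.11 ± 0.22). Nedd4l, a ubiquitin ligase that Sgk1 restrains, was lower in intermediate cells (−1.07 ± 0.31), and Vhl was higher in basal cells (1.71 ± 0.47).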

How the data were processed

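Cells and nuclei were captured with 10x Chromium chemistry. The authors counted UMIs per gene and barcode with Cell Ranger 2.0.0 on mm10, and the deposited values are raw counts, 1 matrix per capture. The annotation version and any counting of introns are not given in the sources used here. Gene positions are from GENCODE vM21 on mm10. The transporters and the gene lists were chosen with earlier results of these data known.

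Barcodes with at least 200 genes were kept, and doublets were removed by Scrublet score (scanpy 1.11.5) at 0.8% of barcodes per 1000 barcodes, which took 1, 14 and 19 cells and 947 nuclei. Kept barcodes had medians of 5050, 4891 and 3873 UMIs in cells and 1499 in nuclei. Clustering in Seurat 5.3.0 (R 4.3.3) used 2000 variable genes without the transporters, 36 components for cells and 42 for nuclei, and resolution 0.8. No authors' annotation of barcodes was used. Clusters were named from 119 markers of 16 classes, by a rule settled after the clusters were seen.

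Within each capture, UMIs of a type were added up if it held at least 5 cells, which gave 11 sums, since capture 1 held too few spindle/root cells. These sums were fitted in edgeR 4.0.16 (quasi-likelihood test, TMM, capture as replicate block). The block came from the design, since a capture is 1 suspension. Deviations of types from 1 capture correlated at −0.06 to 0.33 over 15 pairs and 2808 genes. CPM is per 1000000 UMIs of the sum. Where a type held 0 UMIs, the fold is a bound from a floor of 3 counts over its cells in all captures. The capture of nuclei was not tested, and its 95% Poisson intervals cover counting error only.

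Genes were named by rule: all called genes, Slc3a2 and its light chains with values, the others with their highest type in nuclei, those under 30 UMIs by name (1 is not reported here), and up to 3 called genes per list by size of change. Alternatives changed doublet removal, gene and mitochondrial limits, resolution, cells rich in intermediate markers, DESeq2 1.42.0, scaling, filters, the block and single captures. An alternative without the basal cluster rich in intermediate markers, and another without spindle/root cells with at least 50 Ddit3 UMIs, were chosen after seeing the data.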

Additional observations from a re-analysis of the deposited data

How the results depend on the processing

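Of the 22 called differences of a type from the other types, 12 kept their direction and call under every alternative in which the gene was tested. Another 10 fell short of the threshold under at least 1, and 1 of these also changed direction. That was Slc7a5 in marginal cells, at 2.19 (adjusted p = 0.0727 in edgeR) without removal of doublets, 2.28 (0.142) with at most 50% mitochondrial UMIs and 0.039 (0.949) without the spindle/root cells rich in Ddit3. The values 2.19 and 2.28 are uncertain in size. In the main setting all Slc7a5 UMIs of spindle/root cells came from 1 cell of capture 2 (16) and 1 of capture 3 (3). Spindle/root totals of these captures were 130691 and 105205 UMIs. They fell to 95784 and 94492 without removal of doublets, and to 58542 and 22223 with the mitochondrial limit. The Slc7a5 counts left there can be few or 0. Among the 12, Slc7a10 was tested in 13 of the 17 alternatives and Slc6a17 in 16. Neither was tested in the cells low in intermediate markers. Slc7a10 was also not tested with at most 50% mitochondrial UMIs, without the basal cluster rich in intermediate markers or without capture 2. All genes tested numbered 5194 to 15448 between settings. Most counts below therefore stand beside the count over all genes, and none is compared as a share. Among cells low in intermediate markers, genes called in marginal cells were 2 higher and 1 lower, and 0 were lower in intermediate cells. In spindle/root cells 0 were higher and 4 lower. All 5194 genes gave 889 higher and 463 lower in marginal, 743 lower in intermediate, and 525 higher and 448 lower in spindle/root cells. Without removal of doublets 1 was lower in marginal, 7 were higher in intermediate, 7 higher in basal and 5 lower in spindle/root cells. Of all 7147 genes, 720, 1301, 1172 and 709 were called so, in that order. With at most 50% mitochondrial UMIs 1 was lower in marginal, 1 lower in intermediate and 5 lower in spindle/root cells. Of all 6720 genes, 491, 662 and 779 were called lower in these types. Genes lower in marginal cells numbered 1 at resolution 0.4, with transporters allowed among the variable genes, without the basal cluster rich in intermediate markers (1 then lower in basal cells), without the Ddit3-rich cells and in DESeq2. In those settings, all genes called lower in marginal cells numbered 520 to 755 of 5838 to 7414. Genes lower in spindle/root cells numbered 4 with at least 500 genes per barcode, 4 with transporters allowed and 5 without the Ddit3-rich cells. Beside them stood 531 of 7394, 608 of 7221 and 668 of 7202 of all genes. Without TMM scaling 4 were lower in intermediate and 1 lower in spindle/root cells, beside 2412 and 433 of all 7385 genes. Leaving that scaling out moved the median of all genes to −0.35 in intermediate and 0.28 in spindle/root cells. It also moved the share of calls that were higher to 21.6% from 51.1% and to 76.6% from 55.5%. With at most 50% mitochondrial UMIs the spindle/root median was −0.58 and the shares were 71.5%, 66.2%, 74.9% and 38.3% in marginal, intermediate, basal and spindle/root cells, and in DESeq2 the spindle/root share was 67.9%. Without the replicate block 1 gene was lower in marginal cells, and the calls of Slc7a5 (adjusted p = 0.163) and Slc6a6 (0.0620) in marginal cells were lost. Leaving out 1 capture at a time gave 5 genes higher and 0 to 3 lower in marginal cells, 1 to 2 lower in intermediate cells and 0 to 2 higher in spindle/root cells. In each case above the cause was not tested. No paired analysis was possible because nuclei and cells came from different suspensions, so the block served the cells only. In nuclei the highest SV type changed for 4 of 39 genes without removal of doublets, 2 at resolution 0.4, 1 at resolution 1.2 and 3 without mitochondrially encoded genes. Depth limited spindle/root cells most, where 3 counts correspond to 9.91 CPM.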
